A study of Mus musculus with 2 samples.

Results

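The genes described here are the 3 mouse Runx genes, Runx1, Runx2 and Runx3, and Cbfb, which encodes their shared partner subunit. They are 4 of the 31053 genes of a single-cell RNA count matrix from the mouse lower incisor, and they were taken by name across epithelial, mesenchymal and immune cells. The labels describe untreated C57BL/6 mice of 4 weeks, and the protocol took the pulp together with the dental epithelium, opened it with collagenase and captured cells in droplets with 3′-end tags. The labels call the tissue dental mesenchyme, but of the cells analysed 17.0% were epithelial and 30.0% immune, and 48.6% were mesenchymal. The 2 sample titles differ only in the sequencing lane, and the deposited counts form a single matrix, so there was 1 sample, no replicate and no test. The number of animals behind the matrix is unknown.

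Runx proteins are transcription factors that bind DNA through their Runt domain. CBFβ, the product of Cbfb, does not bind DNA itself but holds the Runt domain in its binding form. Runx2 is required for osteoblast differentiation and for tooth development past its early stages. Runx1 is required for definitive blood formation and also acts in epithelia, among them the hair follicle and the dental epithelium. Runx3 acts in cytotoxic T cells, natural killer cells, dendritic cells and sensory neurons. Each Runx gene has a distal and a proximal promoter, and counts of 3′ tags do not separate the transcripts of the pair.

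On the mm10 build used by the submitters, Runx1 (ENSMUSG00000022952) lies on the minus strand of chr16:92601466-92826149 and Runx2 (ENSMUSG00000039153) on the minus strand of chr17:44495987-44814797. Runx3 (ENSMUSG00000070691) lies on the plus strand of chr4:135120652-135177990 and Cbfb (ENSMUSG00000031885) on the plus strand of chr8:105170674-105217989. These spans come from the GENCODE M21 annotation. RefSeq windows of 300 bases around gene starts (GRCm38.p6, 250 bases before to 50 after) held one feature that the 3 Runx genes share. In the window of each gene's distal start an identical run of 18 bases holds a pair of Runx sites in tandem. It is shown because it is a sequence that these genes have in common and that the proteins they encode can bind. The letters are 5′ to 3′ on the strand of the gene, and capitals mark the shared run.
Runx1 distal start, chr16:92826025-92826054, minus strand: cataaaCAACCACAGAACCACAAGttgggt
Runx2 distal start, chr17:44814583-44814612, minus strand: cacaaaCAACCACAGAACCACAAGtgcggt
Runx3 distal start, chr4:135120503-135120532, plus strand: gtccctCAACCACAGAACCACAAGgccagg

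The run began 26 bases after the annotated start in Runx1, 21 bases after it in Runx2 and 136 bases before it in Runx3. Its paired motif is TGTGGT, read on the opposite strand as ACCACA. The whole run was found in 4 of 32851 windows, a share of 0.0122%: those of the 3 Runx genes and that of Gm16225. Pairs of TGTGGT on 1 strand within 10 bases of each other were in 38 windows (0.116%), while single TGTGGT motifs are common and were in 16.8% of windows. The variant TGCGGT was in 6.45%, and either motif in 22.4%, both strands searched. The Runx2 window held 4 such motifs in all, 1 of them TGCGGT. The window of Cbfb and the other windows of Runx1 and Runx3 held none of these letters. A motif match is a description of sequence, and no binding was measured here.

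The matrix held 68931830 unique molecular identifiers (UMIs, 1 per captured RNA molecule). Of its barcodes, 5336 had at least 500 detected genes, 561 of these were left out for more than 20% mitochondrial UMIs, and 4775 remained. After removal of 122 barcodes by doublet score and 118 by haemoglobin RNA, 4535 cells were analysed, with a median of 5790 UMIs. Median depth was 9297 UMIs in the 770 epithelial, 2958 in the 1361 immune and 7006 in the 2202 mesenchymal cells. Levels are given as CPM, the summed UMIs of the gene scaled to a total of 1000000 UMIs in the group, with exact 95% Poisson intervals. Shares of cells carry exact Clopper-Pearson 95% intervals, and all intervals cover counting error only. Clusters are called by their leading gene, and neither the 4 genes nor the listed genes below were used to form them. Droplets of 1 to 20 UMIs, a level that free RNA can give, held 26.0 CPM of Runx1, 15.3 CPM of Runx2, 9.02 CPM of Runx3 and 30.2 CPM of Cbfb. RNA of the enamel-forming cells was found outside them too: the 7 ameloblast markers summed to 386 CPM in the endothelial Emcn cluster, against 393349 CPM in the Ambn cluster.

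Runx1 was an epithelial and immune gene in this tissue. It had 2695 UMIs in 1179 cells (26.0%), of which 54.2% were in epithelial, 35.8% in immune and 9.42% in mesenchymal cells. Its level was 144 CPM (137 to 151) in epithelium, 183 CPM (172 to 195) in immune cells and 14.1 CPM (12.4 to 16.0) in mesenchyme. In the 74 endothelial cells Runx1 had 0 UMIs of 445522, with an interval that reaches 8.28 CPM, where the droplet level would give 11.6 UMIs. The mesenchymal level lay below that of the droplets and above this endothelial limit, and whether it is background was not tested. In erythroid cells Runx1 had 8 UMIs (20.1 CPM, 8.69 to 39.7), where the droplet level would give 10.3 UMIs.

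The epithelium was not uniform in Runx1. The Grp cluster (191 cells, led by Grp, Sfrp5, Vwa2 and Krt18) had 292 CPM and the Krt17 cluster (90 cells, with the desmosomal cadherins Dsc3 and Dsg1a among its leading genes) had 241 CPM. The epithelial Dspp cluster (191 cells) had 79.0 CPM (68.1 to 91.1) and the Ambn cluster (298 cells), named ameloblast-like for its enamel matrix genes, 76.5 CPM (68.6 to 85.2). The intervals of the Grp and Krt17 clusters overlapped by little, those of the Dspp and Ambn clusters almost wholly, and the pairs were far apart. The likeness of Dspp and Ambn depends on the clustering. In the finer one the Dspp cluster (150 cells) had 108 CPM (94.9 to 122) and the Ambn cluster (248 cells) 57.6 CPM (50.2 to 65.8). Smaller clusters split from them overlapped: Cyp26a1 (51 cells) had 100 CPM (66.5 to 145) and Hspb1 (40 cells) 70.2 CPM (47.0 to 101). The single highest cell held 47 Runx1 UMIs and belonged to the Grp cluster, in which 63 of 191 cells had 4 or more. With each cell thinned to 2000 UMIs, Runx1 was found in 38.8% of Grp cells (66 of 170), 39.2% of Krt17 cells (31 of 79), 14.9% of Dspp cells and 11.1% of Ambn cells. The shares at full depth were closer together (72.3%, 58.9%, 50.3% and 49.7%).

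Among immune cells Runx1 was highest in macrophage-like and monocyte-like clusters, and other classes carried it too. The macrophage-like Il1a cluster (58 cells, led by Il1a, Ccl4 and Cxcl2, genes of activated cells) had the highest level of all clusters, 405 CPM (330 to 491), and its interval did not reach that of the Grp cluster in second place. The macrophage-like Ccl7 cluster (373 cells, with Mrc1, Pf4 and C1qa) had 250 CPM, and the Ly6c2 cluster of monocyte-like cells (159) had 199 CPM. The H2-Eb1 cluster (199 cells, led by genes of MHC class II) had 169 CPM, the cytotoxic Gzma cluster (77 cells) had 170 CPM and the dendritic-like Cox6a2 cluster 156 CPM. The B-cell-like Ms4a1 cluster (126 cells) had 83.6 CPM (50.4 to 131), the B-cell-like Vpreb3 cluster 53.5 CPM and the T-cell-like Trbc2 cluster 42.2 CPM, and both neutrophil clusters, Retnlg (26.5 CPM) and Camp (22.6 CPM), were at the droplet level. In the order over all 28 clusters, the step from the first to the second was the only one of 27 between neighbours whose intervals did not overlap. That step depends on the clustering: the finer one had no cluster led by Il1a, and its highest, the Cxcl10 cluster (183 cells, 319 CPM, 286 to 355), overlapped its Grp cluster (293 CPM, 272 to 315).

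Runx2 was mesenchymal, and most of it was in 1 cluster. It had 1959 UMIs in 947 cells (20.9%), with 6.18% of the UMIs in epithelial, 4.29% in immune and 89.2% in mesenchymal cells. Its level was 11.9 CPM (9.89 to 14.2) in epithelium and 15.9 CPM (12.7 to 19.7) in immune cells, neither with an interval above that of the droplets, against 97.2 CPM (92.7 to 102) in mesenchyme. The Ogn cluster held 1036 of the 1748 mesenchymal UMIs in 378 of the 2202 cells. Its leading genes are Ogn, Tagln, Dpep1, Sfrp2 and Acta2, and all 7 markers of the dental follicle list, the tissue around the tooth that forms periodontal ligament, were raised in it.

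In the Ogn cluster Runx2 was at 384 CPM (361 to 408). The 8 other mesenchymal clusters lay between 38.9 CPM (Tac1) and 60.1 CPM (Fmod), a narrow band with overlapping intervals between neighbours and levels above the droplets' 15.3 CPM, though the interval of the mesenchymal Dspp cluster (from 19.9 CPM) met that of the droplets. Even the 2 odontoblast-like clusters fell in that band, with 55.6 CPM in the Dmp1 cluster and 39.8 CPM in the Lgals3 cluster. At full depth 84.1% of Ogn cells had a Runx2 UMI and 114 of 378 had 4 or more, whereas in the other 8 clusters 17.9% to 42.4% had any. Thinned to 2000 UMIs, 52.7% of Ogn cells (186 of 353) kept one, against 7.47% to 13.6% in the others. Finer clustering split these cells into an Adgrg6 cluster (160 cells) with 412 CPM (376 to 450) and an Sfrp2 cluster (220 cells) with 361 CPM (332 to 392), so both carried it. Osteoblast markers summed to 258 CPM in the Ogn cluster, against 6201 CPM in the Dmp1 cluster. The mesenchymal Dspp cluster (22 cells), left unnamed, had 5 osteoblast markers raised and Runx2 at 39.8 CPM (19.9 to 71.2).

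Outside the mesenchyme 3 clusters had a Runx2 interval wholly above that of the droplets, whose upper bound is 20.5 CPM. The Trbc2 (36.9 CPM), Gzma (30.4 CPM) and Hs3st1 (24.1 CPM) clusters were higher than the droplets by level but with overlapping intervals. The Cox6a2 cluster, 26 cells named dendritic-like and led by Cox6a2, Siglech, Cd7 and Bst2 (Siglech is a receptor of plasmacytoid dendritic cells), had 228 CPM (138 to 357) from 19 UMIs in 12 cells. Its cells with Runx2 UMIs held dendritic markers in 12 of 12 cases, epithelial markers in 3, mesenchymal markers in 2 and follicle markers in 1. Of the 14 Cox6a2 cells without Runx2, 14 held dendritic, 4 epithelial and 0 mesenchymal markers. The monocyte-like Ly6c2 cluster had 35.6 CPM (22.3 to 53.8). That depends on the clustering: the finer Ly6c2 cluster (152 cells) had 27.7 CPM (15.5 to 45.6), which overlapped the interval of the droplets. The epithelial Krt17 cluster had 67.5 CPM (51.7 to 86.5), but 41 of its 62 UMIs came from 4 of its 90 cells, which had a median of 31916 UMIs against 5627 in the 71 cells without Runx2. Those 4 cells held epithelial markers at 3633 CPM and mesenchymal markers at 720 CPM, against 3468 and 265 CPM in the cells without Runx2; whether they are doublets was not tested. At 2000 UMIs the Krt17 cluster kept Runx2 in 3 of 79 cells (3.80%). The antisense transcript Runx2os1 had 118 UMIs, 100 of them mesenchymal, Runx2os2 had 2 and Runx2os3 had 0. The sources used here do not say whether counting used the strand, so reads of Runx2 and of an overlapping antisense gene cannot be told apart.

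Runx3 was high in few immune cells, lower across the mesenchyme and uneven in the epithelium. It had 1567 UMIs in 1061 cells (23.4%), and 70.4% of these cells had a single UMI. By sum, 16.4% of the UMIs were epithelial, 25.3% immune and 57.2% mesenchymal. By level, epithelium had 25.3 CPM (22.3 to 28.6), immune cells 75.1 CPM (67.9 to 82.9) and mesenchyme 49.9 CPM (46.7 to 53.3). The Cox6a2 cluster was highest with 529 CPM (384 to 710), followed by the cytotoxic Gzma cluster with 487 CPM (386 to 606), and these intervals overlapped. Trbc2 T cells had 185 CPM (129 to 257), below both and outside their intervals. Thinned to 2000 UMIs, Runx3 was found in 14 of 23 Cox6a2 cells, 23 of 35 Gzma cells and 14 of 42 Trbc2 cells.

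In the H2-Eb1 cluster Runx3 had 128 CPM, and finer clustering showed that it lay with the Cd209a cells. The Cd209a cluster (82 cells, Cd209a being a lectin of dendritic cells) had 198 CPM (158 to 245), against 48.1 CPM (30.5 to 72.2) in the 146 cells of the finer H2-Eb1 cluster. The same Cd209a cells had Runx1 at 200 CPM (161 to 247). Macrophage-like Ccl7 cells, with Runx1 at 250 CPM, had Runx3 at 26.9 CPM (20.3 to 35.0). In the 9 mesenchymal clusters Runx3 ranged from 21.7 CPM (Dspp) to 59.7 CPM (Ube2c, the dividing cells), and in each but the Dspp cluster of 22 cells the interval lay wholly above the droplet level's upper bound of 13.2 CPM. Of the mesenchymal cells, 8.96% kept a Runx3 UMI at 2000 UMIs, against 0 of 66 endothelial cells (0% to 5.44%) and 0 of 55 erythroid cells. Ameloblast-like Ambn cells had 7.95 CPM, at the droplet level. The other epithelial clusters were higher: Krt17 had 81.6 CPM (64.2 to 102), Grp 38.1 CPM (30.8 to 46.7) and Dspp 22.6 CPM (17.0 to 29.4). One Krt17 cell held 16 of that cluster's 75 Runx3 UMIs. At 2000 UMIs 8.86% of Krt17 cells (7 of 79) kept one.

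Cbfb was spread widely and varied least. It had 2198 UMIs in 1448 cells (31.9%), the most cells of the 4 genes, and its level was 43.4 CPM (39.5 to 47.7) in epithelium, 58.4 CPM (52.1 to 65.4) in immune cells and 78.4 CPM (74.3 to 82.6) in mesenchyme. Clusters ran from 0 to 103 CPM with a median of 56.5 CPM, and none of the 27 steps between neighbours in the order had intervals apart. The top was shared by the Gzma (103 CPM), Trbc2 (100 CPM) and Fmod (99.9 CPM) clusters. Cbfb was also found in cells without Runx UMIs: the 74 endothelial cells had 19 Cbfb UMIs (42.6 CPM, 25.7 to 66.6) and 0 of any Runx gene, although that level overlaps the droplets' 24.2 to 37.2 CPM. The 55 erythroid cells had 0 Cbfb UMIs of 397505, where the droplet level would give 12.0 UMIs. In the Cox6a2 cluster, where all 3 Runx genes lay above the droplet level, Cbfb had 1 UMI (12.0 CPM), and the interval reaches 67.0 CPM.

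**Figure D1:**
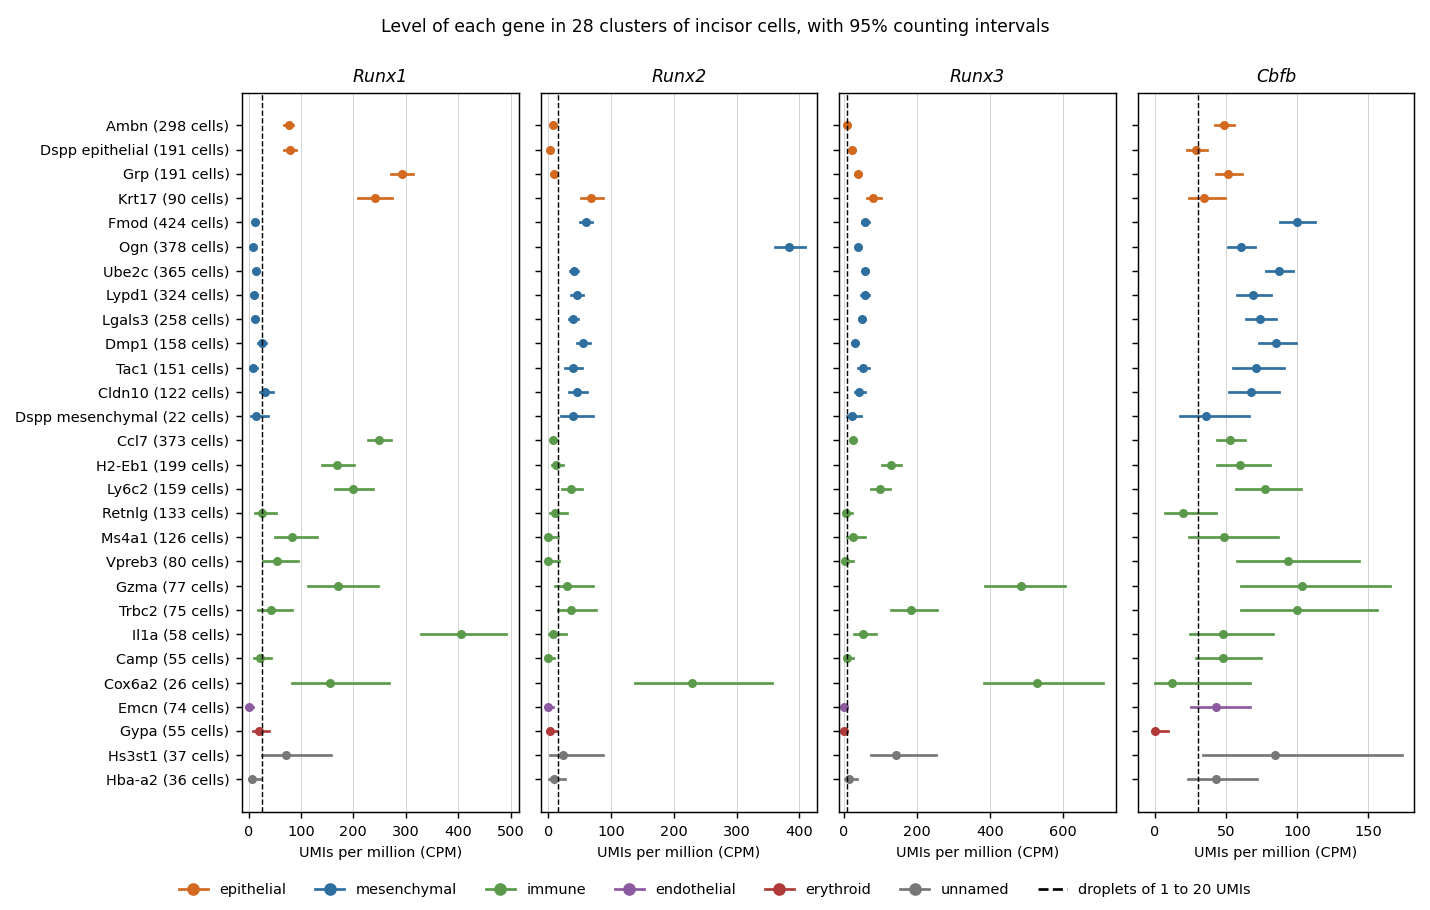
Level of Runx1, Runx2, Runx3 and Cbfb (CPM, 1 panel a gene with its own axis) in each of 28 clusters; points are summed counts, bars exact 95% Poisson intervals, and the dashed line is the level in droplets of 1 to 20 UMIs. Runx2 stands at 384 CPM in the Ogn cluster and Runx1 at 405 CPM in the Il1a cluster, while Cbfb stays at or below 103 CPM throughout.

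**Figure D2:**
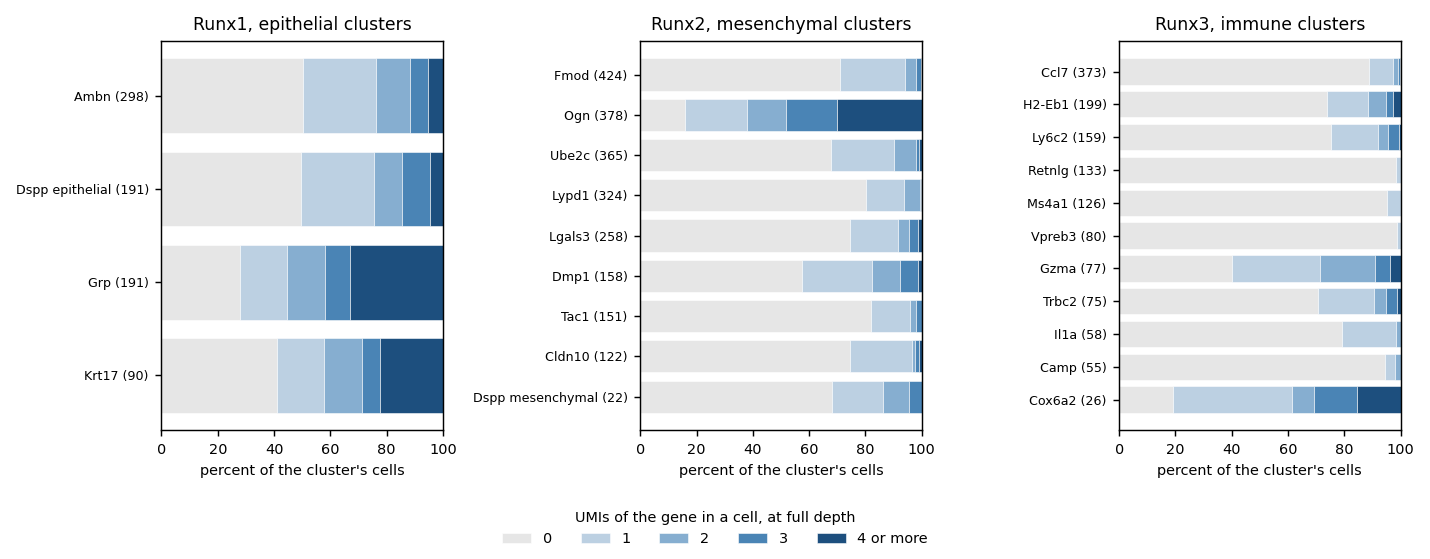
Share of cells (percent of a cluster) with 0, 1, 2, 3 or at least 4 UMIs of Runx1 in the epithelial, Runx2 in the mesenchymal and Runx3 in the immune clusters, at full depth, with the number of cells in brackets. The dark part is large in the Grp cluster for Runx1 (63 of 191 cells) and in the Ogn cluster for Runx2 (114 of 378 cells).

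Ratios of summed levels put these patterns on one scale. A gene counts as measured where both sides together held 30 UMIs or more, and as higher or lower from 2-fold. All 4 genes were measured in all 6 comparisons. Ratios have no replicate check, and their intervals come from the exact conditional binomial.

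Epithelium over mesenchyme separated Runx1 and Runx2 in opposite directions. The log2 ratio of Runx1 was 3.35 (3.15 to 3.55) and that of Runx2 -3.03 (-3.31 to -2.76). Runx3 at -0.98 (-1.19 to -0.78) and Cbfb at -0.85 (-1.01 to -0.70) were lower in epithelium by less than 2-fold. So 1 of the 4 genes was at least 2-fold higher, as were 10.5% of the 12920 measured genes, and 1 was at least 2-fold lower, as were 20%. The median log2 ratio of all measured genes was -0.29, and 5 genes above 1% of the UMIs took 22.1% of epithelial and 4.34% of mesenchymal UMIs. Relative to that median, Runx3 was at -0.69 and Cbfb at -0.57.

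Immune cells over mesenchyme gave nearly the same pair of opposite values. Runx1 had a log2 ratio of 3.70 (3.50 to 3.90) and Runx2 one of -2.61 (-2.94 to -2.29), so 1 gene was higher, against 18.6% of 13142 measured genes, and 1 lower, against 32.7%. Runx3 was at 0.59 (0.42 to 0.76) and Cbfb at -0.42 (-0.61 to -0.24), and the median of all genes was -0.44. Both comparisons use the same mesenchymal cells.

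Epithelium over immune cells left only Runx3 past 2-fold, with a log2 ratio of -1.57 (-1.80 to -1.34). It made 1 of 4 genes lower, against 21.8% of 12133 measured genes, and 0 higher, against 24.9%. Runx1 at -0.35, Cbfb at -0.43 and Runx2 at -0.42 (-0.83 to -0.00) were all lower in epithelium by less than 2-fold.

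Within the mesenchyme the Ogn cluster was past 2-fold over the other 1824 cells in Runx2 alone. Its log2 ratio was 3.04 (2.90 to 3.18), from 384 CPM in the Ogn cluster and 46.6 CPM in the other mesenchymal cells. Thus 1 gene of 4 was higher, against 15.2% of 12056 measured genes, and 0 were lower, against 10.1%. Runx3 was at -0.38 and Cbfb at -0.43, and Runx1 at -0.97 compares 7.79 CPM in the Ogn cluster with 15.3 CPM in the others, both below the droplet level.

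Within the epithelium, ameloblast-like cells over the other 472 cells had less of all 3 Runx genes by CPM. Runx3 had a log2 ratio of -2.28 (7.95 CPM in ameloblast-like cells, 38.6 CPM in the others), Runx1 one of -1.35 (76.5 and 195 CPM) and Runx2 one of -1.15, so 3 of 4 were lower, as were 40.1% of 10574 measured genes, and 0 were higher, as were 3.78%. These cells spend their UMIs on few genes: 8 genes took 44.1% of UMIs in ameloblast-like cells and 9.32% in the others, and the median of all measured genes was -0.79. Of the 90 Runx2 UMIs in the other epithelial cells, 41 were in the 4 deep Krt17 cells described above, and the levels of 7.04 CPM in ameloblast-like cells and 15.7 CPM in the others do not exceed the droplets' interval. The ratio of Runx2 was under 2-fold with thinning (-0.19), as were those of Runx1 (-0.65) and Runx2 (-0.46) with totals that leave out genes above 1% of UMIs. Relative to the median of all genes Runx1 was at -0.56, Runx2 at -0.36, Runx3 at -1.49 and Cbfb at 1.08, whose ratio itself was 0.29.

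Within the immune cells, T or cytotoxic cells (152) over the other 1209 had a Runx3 log2 ratio of 2.51, with 325 CPM in T or cytotoxic cells and 57.2 CPM in the others. Runx2 had one of 1.21 (0.19 to 2.10), which rests on 12 UMIs in T or cytotoxic cells and was under 2-fold with each cell weighted equally (0.83) and with thinning to 2000 UMIs (0.29). So 2 of 4 genes were higher by summed CPM, against 11.4% of 9092 measured genes, and 0 were lower, against 24.0%. Cbfb was at 0.88 and Runx1 at -0.89.

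**Figure D3:**
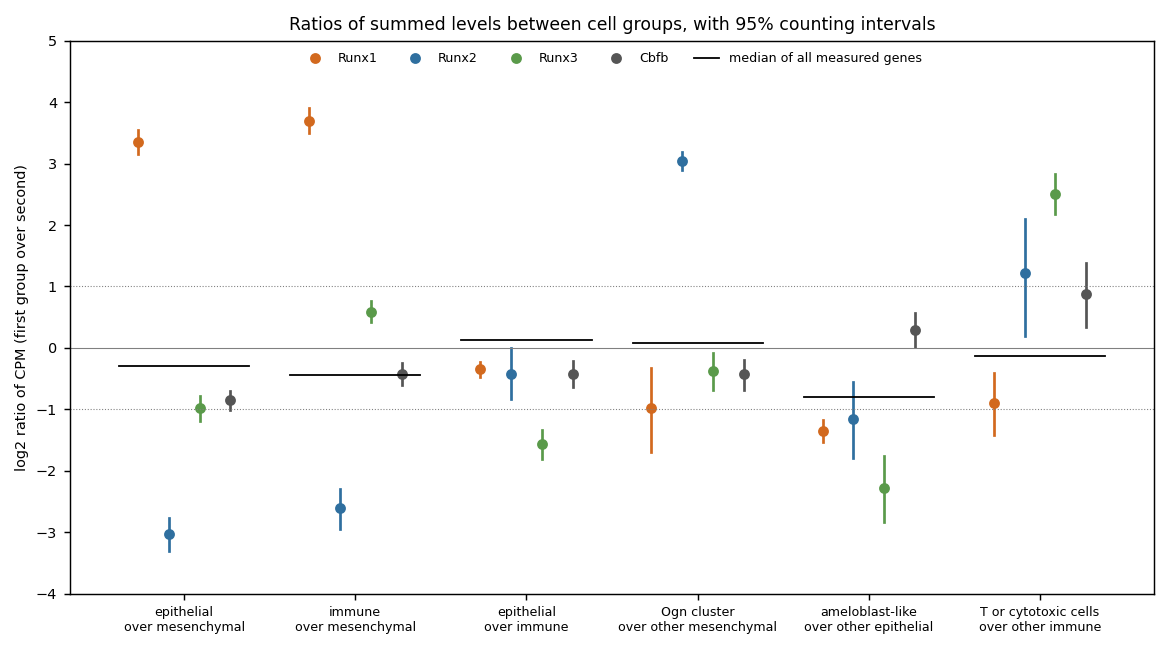
Log2 ratio of CPM (first group over second) of the 4 genes in 6 comparisons; bars are 95% counting intervals, dotted lines mark 2-fold and the black line is the median of all measured genes. Runx1 and Runx2 lie on opposite sides in both comparisons with mesenchyme (3.35 and -3.03, 3.70 and -2.61).

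At equal depth few cells held more than one Runx gene. After thinning to 2000 UMIs, 712 epithelial, 922 immune and 2032 mesenchymal cells remained, and 58 epithelial, 439 immune and 170 mesenchymal shallower cells were left out. In epithelium 20.4% of cells had Runx1 alone, 2.53% Runx3 alone and 0.702% Runx2 alone, while 1.40% had 2 or more and 75.0% none. In immune cells 22.1% had Runx1 alone, 8.89% Runx3 alone and 1.74% Runx2 alone, while 5.53% had 2 or more and 61.7% none. In mesenchyme 14.3% had Runx2 alone, 6.79% Runx3 alone and 2.36% Runx1 alone, while 2.51% had 2 or more and 74.1% none. Of the clusters, Cox6a2 had the highest share in this count: 9 of 23 Cox6a2 cells (39.1%) had 2 or more of the 3 genes, followed by 8 of 35 Gzma cells (22.9%) and 14 of 119 Ly6c2 cells (11.8%). No intervals were computed for these shares of few cells. Whether they exceed what the share of each gene alone would give was not tested. Of all thinned cells in the 3 classes, 2 immune cells and 1 mesenchymal cell had all 3. A cell without a UMI at this depth may still express the gene.

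**Figure D4:**
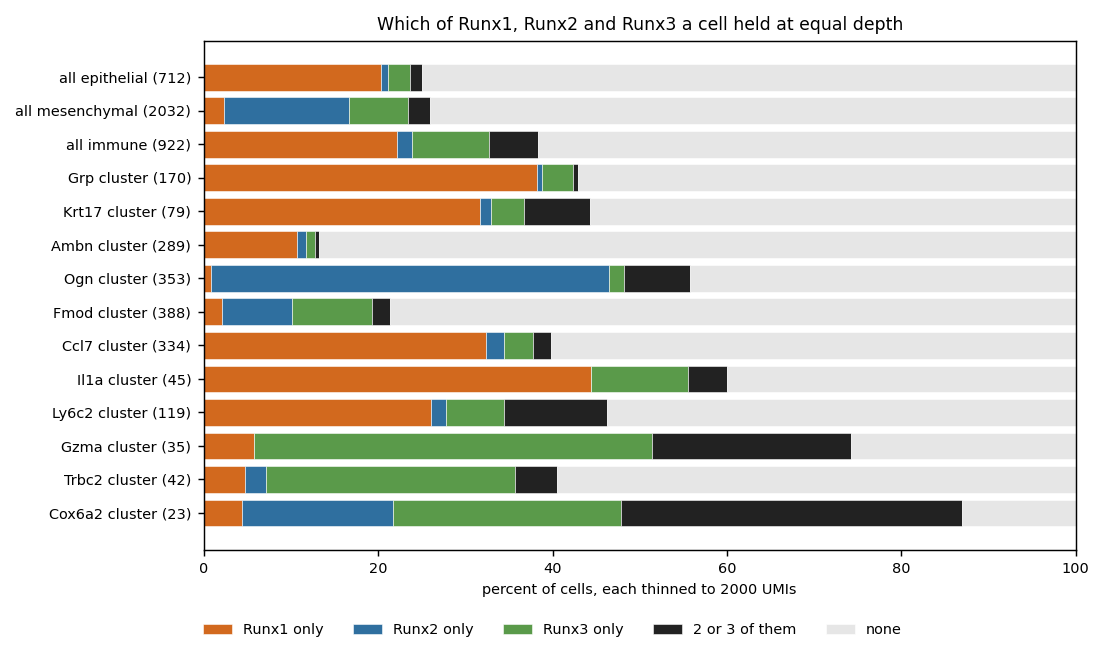
Share of cells (percent, each thinned to 2000 UMIs, number of cells in brackets) with Runx1 only, Runx2 only, Runx3 only, 2 or 3 of them, or none, in the 3 classes and in 11 chosen clusters. Runx2 only fills 45.6% of the Ogn cluster, and 2 or 3 genes together 39.1% of the Cox6a2 cluster.

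Associations among the members within a class varied with the thinning, which was run at 2000 UMIs with 2 seeds and at 1000 UMIs. Of 23 values under the other thinnings, 8 had a sign other than that in the first thinning. In mesenchyme, Runx3 was found in 11.6% of the 336 cells with Runx2 and 8.43% of the 1696 without, and the odds ratio stratified over clusters was 1.65, with a range of 0.95 to 1.97 over the thinnings. Cbfb was found in 12.8% of mesenchymal cells with Runx2 and in 14.5% of those without (odds ratio 0.89, range 0.84 to 1.02). In epithelium, Cbfb was found in 8.39% of the 155 cells with Runx1 and in 6.82% of the 557 without (odds ratio 1.12, range 1.12 to 2.00). In immune cells, Runx3 was in 30.6% of the 36 cells with Runx2 and in 12.8% of the 886 without, and the stratified odds ratio was 1.20, with a range of 1.20 to 2.93 over the thinnings. In the first thinning the intervals of the shares (16.3% to 48.1% with Runx2, 10.6% to 15.1% without) were apart for this pair, and they overlapped for the other pairs compared.

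Genes found in the same cells as Runx2 were those of the Ogn cluster. In mesenchymal cells with Runx2, the growth factor gene Igf1 was found in 48.8%, against 9.38% of cells without, and Ogn, a small leucine-rich proteoglycan, in 41.7% against 7.72%. The matrix genes Col3a1 (67.0% against 34.2%), Nid1 (49.1% against 19.6%) and Spon1 (34.2% against 6.72%) and the protease inhibitor gene Timp2 (56.2% against 25.3%) followed. All 9 genes named for this pair kept their sign in the 3 thinnings, Igf1 between 34.6 and 44.1 points. Odds ratios stratified over clusters ranged from 1.29 to 1.66 for Igf1, 1.11 to 1.34 for Ogn, 1.01 to 2.22 for Spon1 and 0.88 to 1.32 for Nid1. Less frequent in cells with Runx2 were Bambi, a decoy receptor for TGF-β family signals (41.4% against 70.6%), Smpd3, an odontoblast marker (27.7% against 56.5%), and the growth factor gene Ptn (65.5% against 93.9%). The stratified odds ratio of Ptn ranged from 0.52 to 1.07.

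In epithelial cells with Runx1, Epcam and Cldn10, leading genes of the Grp cluster, were more frequent and genes of the enamel-forming cells less so. The adhesion molecule gene Epcam was found in 44.5% of cells with Runx1, against 20.6% without, with a stratified odds ratio of 1.70 and a range of 1.03 to 1.70 over the thinnings. The metallothionein gene Mt1 (41.3% against 18.1%), Atp5g3, a subunit of ATP synthase (59.4% against 36.4%), the tight-junction gene Cldn10 (36.8% against 14.2%), the growth factor gene Mdk (50.3% against 29.3%) and Bex3 (48.4% against 27.6%) followed. Stratified odds ratios over the thinnings were 0.82 to 1.33 for Mt1, 0.998 to 2.02 for Atp5g3 and 1.30 to 2.28 for Cldn10. Those of Mdk were 0.80 to 2.30 and those of Bex3 0.69 to 1.54. The enamel protein gene Enam was in 33.5% against 64.6% and the calcium-binding protein gene Calb1 in 42.6% against 72.7%, with stratified odds ratios of 0.86 to 1.03 for Enam and 1.02 to 2.63 for Calb1 over the thinnings. Plod2, a collagen lysyl hydroxylase, was in 38.1% against 67.7% (0.76 to 1.58). Of the 9 genes, 8 kept their sign in all thinnings, and Bex3 did not. Of the listed genes, Fgfr2 (13.5% against 3.41%, odds ratio 3.00) and Igfbp3 (21.9% against 4.49%, odds ratio 2.90) were also more frequent in epithelial cells with Runx1, in the 1 thinning computed for them.

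In immune cells with Runx1 the 2 largest differences were Cdkn1a, a cell-cycle inhibitor (60.6% against 31.7% of cells without), and Atf3, a stress-response transcription factor (62.6% against 34.5%). The immediate-early gene Nr4a1 was in 47.6% against 24.6%. Their stratified odds ratios ranged over the thinnings from 1.37 to 2.13 for Cdkn1a, 1.58 to 2.04 for Atf3 and 1.36 to 2.01 for Nr4a1, and all 9 named genes kept their sign. Ifi207 (49.6% against 26.3%), Mt1 (67.9% against 45.0%) and the lysosomal protease gene Ctss (77.2% against 54.4%) followed. Their odds ratios were 1.52 to 1.65 for Ifi207, 0.83 to 1.39 for Mt1 and 0.75 to 1.11 for Ctss. Less frequent with Runx1 were Gmfg, the neutrophil gene Lcn2 (2.03% against 18.0%) and Cd24a (4.47% against 20.3%).

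Genes of cytotoxic lymphocytes were more frequent in immune cells with Runx3, though Klrd1, Ccl5 and Nkg7 were each in a minority of them. Of the 124 such cells, 23 were in the Gzma and 14 in the Trbc2 cluster. Others were in the H2-Eb1 (28), Ly6c2 (17), Ccl7 (16), Cox6a2 (14) and Il1a (7) clusters. Klrd1, a natural killer cell receptor, was in 34.7% of the 124 cells with Runx3, against 5.39% of the 798 without, the chemokine gene Ccl5 in 30.6% against 4.01% and the granule gene Nkg7 in 27.4% against 3.13%. Their stratified odds ratios ranged from 1.78 to 1.90 for Klrd1, 3.00 to 4.66 for Ccl5 and 1.45 to 5.12 for Nkg7, and all 9 named genes kept their sign. Vps37b (47.6% against 17.4%), Crip1 (65.3% against 40.5%) and S100a10 (50% against 25.7%) were the others of the leading 6. Their odds ratios were 1.37 to 1.53 for Vps37b, 0.78 to 1.40 for Crip1 and 0.87 to 1.23 for S100a10. Macrophage genes were less frequent with Runx3: Lyz2 was in 41.9% against 79.6%, C1qb in 23.4% against 51.0% and C1qa in 25% against 51.5%.

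The other pairs of gene and class gave weaker or thinner patterns. The 36 immune cells with Runx2 more often had Clec2d (58.3% against 28.6%) and Tcf4, a transcription factor of plasmacytoid dendritic cells (44.4% against 15.2%), with odds ratios of 2.73 and 3.45 in the only thinning with at least 30 such cells, followed by Plac8, Lsp1, Ubl3 and Mrfap1. They had Lyz2, C1qa and C1qb less often. In the 97 immune cells with Cbfb, Tubb5, Shisa5 and Ets1, an ETS factor that binds DNA together with Runx proteins, led, and Ets1 was in 28.9% against 10.3% (odds ratio 1.07 to 3.55 over the thinnings). The genes named for the remaining pairs varied with the thinning: 6 of 9 kept their sign in all 3 thinnings for mesenchymal Runx3, 4 of 9 for mesenchymal Cbfb and 4 of 9 for epithelial Cbfb. Eif1b, first for mesenchymal Runx3 at 10.6 points, was at -4.74 with the second seed, Atp5a1, first for mesenchymal Cbfb at 10.7 points, was at -4.13 at 1000 UMIs, and Lars2, first for epithelial Cbfb at 19.0 points, was at -12.3 at 1000 UMIs. Mesenchymal Runx1 (61 cells) had too few cells at 1000 UMIs. The leading gene Cenpx of that pair was at 25.6 points and at 2.94 points with the second seed. Epithelial Runx2 and Runx3 had fewer than 30 cells and were not described.

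**Figure D5:**
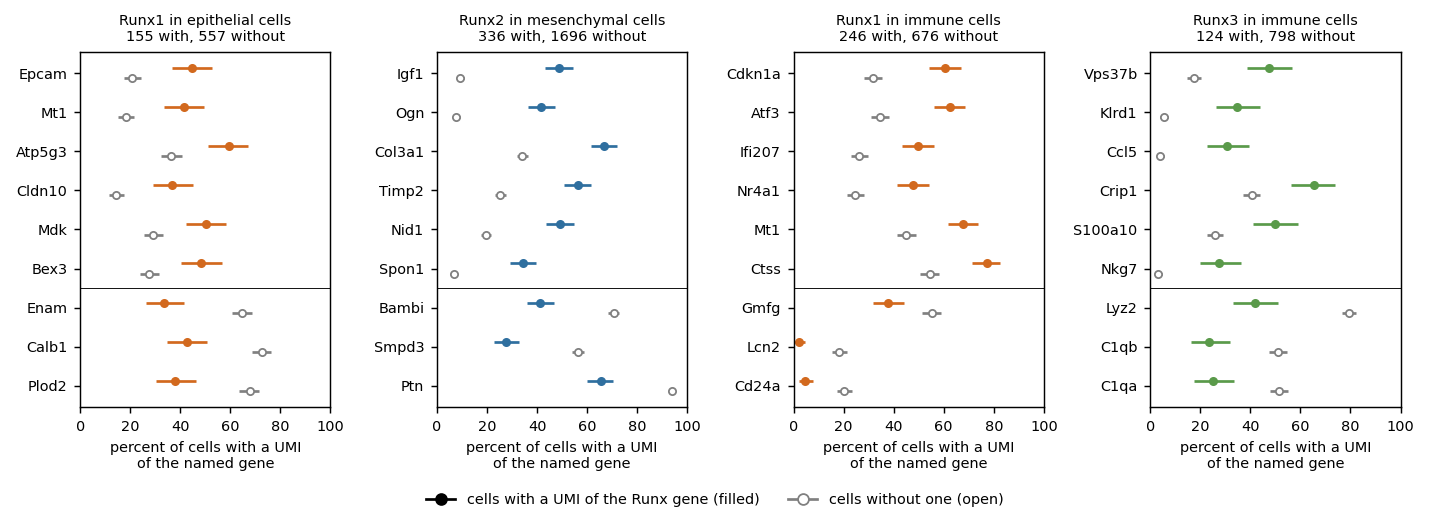
Percent of cells with a UMI of the named gene, among cells with (filled) and without (open) a UMI of the Runx gene, each cell thinned to 2000 UMIs; bars are 95% Clopper-Pearson intervals, and the line parts the 6 largest positive from the 3 most negative differences. In mesenchyme Igf1 was found in 48.8% of cells with Runx2 and in 9.38% of those without.

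Genes chosen as partners, regulators, known targets or otherwise linked genes of the Runx factors, and Gli1 with IGF genes, were then taken as lists. Each count below is to be read beside the share of all measured genes: 10.5% higher and 20% lower in epithelium over mesenchyme, 18.6% and 32.7% in immune cells over mesenchyme, and 24.9% and 21.8% in epithelium over immune cells. The shares were 15.2% higher and 10.1% lower in the Ogn cluster, 3.78% and 40.1% in ameloblast-like cells, and 11.4% and 24.0% in T or cytotoxic cells. Of 18 skeletal genes that Runx2 is known to regulate, 15 were measured in epithelium over mesenchyme, with 0 higher, 11 lower and a median log2 ratio of -4.73. The 4 furthest were the bone matrix genes Spp1 (-7.85), Bglap (-7.83) and Bglap2 (-7.77) and the collagen gene Col1a1 (-7.49, 49.0 CPM in epithelium and 8821 CPM in mesenchyme). In immune cells over mesenchyme 14 of 15 were lower and 0 higher, with a median of -4.88. Low values of skeletal genes outside the mesenchyme follow in part from their choice. Nothing about Runx2 is read from the counts against mesenchyme. In the Ogn cluster, where Runx2 was highest, the list was split: 3 of 15 were higher, 6 lower, and the median of 0.03 lay beside 0.09 for all genes. Bglap (-7.64), Bglap2 (-7.50) and Phex (-5.73, from 1 UMI in the Ogn cluster, interval -11.04 to -3.24), genes of mineralising cells, were lower there, and the growth factor receptor gene Fgfr2 (3.98) was higher. Bglap had 7.79 CPM in the Ogn cluster and 1553 CPM in the other mesenchymal cells. In ameloblast-like cells 0 of 9 were higher and 6 lower, with Alpl, tissue-nonspecific alkaline phosphatase, at -4.42 and Fgfr2 at -4.34.

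The list of Gli1 with IGF ligand, receptor and binding protein genes was mostly higher in the Ogn cluster. Of 11 genes, 9 were higher and 0 lower, with a median of 3.45, beside 15.2% higher and a median of 0.09 for all genes. Igf1 had 2128 CPM in the Ogn cluster and 10.1 CPM in the other mesenchymal cells (log2 ratio 7.71), and the IGF binding protein genes Igfbp2 (7.27), Igfbp3 (6.89) and Igfbp5 (6.59) followed. In epithelium over mesenchyme 2 were higher and 5 lower, and in immune cells over mesenchyme all 11 were lower, Gli1, a hedgehog target, the furthest at -6.05 from 3 immune UMIs (-8.33 to -4.49).

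Transcription factors that bind or work beside Runx proteins differed between the layers. In epithelium over mesenchyme 8 of 13 measured were lower and 0 higher, with a median of -1.59. Twist1, an inhibitor of Runx2, was at -7.60 from 3 epithelial UMIs (-9.88 to -6.05), Twist2 at -6.06, the ETS factor gene Fli1 at -5.88 from 2 epithelial UMIs (-8.93 to -4.01) and the osteoblast factor gene Sp7 at -2.49. In immune cells 6 of 14 were higher and 8 lower, Cebpb, a myeloid factor, with 945 CPM in immune cells and 29.2 CPM in mesenchyme. In the Ogn cluster 3 of 13 were higher and 5 lower. There Twist1 was higher (232 CPM in the Ogn cluster, 26.6 CPM in other mesenchyme, log2 ratio 3.12), while the homeobox genes Msx2 (-5.57), Dlx3 (-2.91) and Dlx5 (-1.82) were lower. In T or cytotoxic cells 1 of 10 was higher, Ets1 at 3.43, and 3 were lower.

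Corepressors and coactivators varied less. In epithelium over mesenchyme 2 of 19 were higher and 5 lower (median -0.22, beside -0.29 for all genes), the furthest being Cbfa2t3 (-4.06 from 2 epithelial UMIs, -7.14 to -2.14), Runx1t1 (-3.96) and Trps1 (-3.44). Cbfa2t3 and Runx1t1 encode ETO-family corepressors, and Trps1 a GATA-type repressor that binds Runx2. In immune cells 4 of 19 were higher and 5 lower, and in the Ogn cluster 2 were higher, Runx1t1 (3.04) and the Groucho gene Tle1 (2.00), with 0 lower. In ameloblast-like cells 6 of 17 were lower, a share under the 40.1% of all genes, Tle1 the furthest at -6.37 from 2 UMIs (-9.42 to -4.50), and 0 higher. Of the 7 ubiquitin ligase and kinase genes that act on Runx proteins, 1 was higher in epithelium over mesenchyme (Wwp1, 1.62) and 1 in immune cells over mesenchyme (again Wwp1, 1.07), with 0 lower in each. The Ogn cluster had 1 higher, the kinase gene Cdk6 (1.60), and ameloblast-like cells 1 lower, again Cdk6 (-1.55). T or cytotoxic cells had Wwp1 at -3.06 from 4 UMIs (-4.94 to -1.70).

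Blood genes that Runx1 or Runx3 are known to regulate were immune, as their choice implies. In immune cells over mesenchyme 17 of 19 were measured and 17 were higher, with a median of 7.18. Elane (10.32, 7.83 to 15.62), Itgal (9.61) and Gzmb (9.08) led, and with 1, 2 and 1 mesenchymal UMIs they reached the minimum only through the immune side. In T or cytotoxic cells over other immune cells 10 of 17 were higher and 6 lower, with a median of 1.62. The list includes genes of T and cytotoxic cells by choice, so nothing is read from this count. Gzmb, a granule protease, had 449 CPM in T or cytotoxic cells and 0 UMIs in the others, a log2 ratio of at least 9.52 against a floor of 3 counts. It reached the minimum only through the T or cytotoxic cells. Il2rb, an interleukin receptor subunit, was at 8.90 and Ccl5 at 8.32. In epithelium only 3 of the 19 were measured against mesenchyme, with 1 lower and 0 higher.

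Epithelial genes linked to Runx1 in earlier work on other tissues and the incisor formed a list of 8, of which 6 were measured in epithelium over mesenchyme. Of these 1 was higher, Cdkn1a (1.27, 480 CPM in epithelium and 200 CPM in mesenchyme), and 2 were lower, the Wnt effector gene Lef1 (-4.19) and the cytokine receptor gene Il6st (-1.39). In ameloblast-like cells over other epithelium 2 of 4 were lower, Socs3 (-3.69) and Il6st (-1.23), and 0 higher, beside 40.1% of all genes lower. In immune cells over mesenchyme 3 of 5 were higher, the cytokine signalling genes Socs3 (3.82) and Stat3 (2.99) and Cdkn1a (1.02), and 0 lower.

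In epithelium over immune cells 17 of 17 measured blood genes were lower, most of which reached the minimum only through the immune side, so nothing is read from this count. Of the epithelial genes linked to Runx1, 4 of 5 were lower and 0 higher. Skeletal genes had 6 of 12 higher and 5 lower, the list of Gli1 and IGF genes 5 of 10 higher and 3 lower, and partner transcription factors 6 of 13 higher and 7 lower. Corepressors and coactivators had 4 of 18 higher and 3 lower, and the ubiquitin ligase and kinase genes 0 of 7 higher and 1 lower, Cdk6 at -1.18.

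Across the 28 clusters, the genes whose levels were most like those of each member were ranked by Pearson correlation of log2(CPM + 5) over 11782 genes. All clusters come from 1 library and differ in depth, so these values are descriptions. For Runx1 the closest were Celf2 (r = 0.75), Fgd2, Mt1, Nab1 and Ildr1 (0.72). For Runx2 they included Robo2 (0.79), 1190002N15Rik, Abca5 and Lgals1 (0.74), and without the 2 clusters highest in Runx2 the first fell to 0.65. For Runx3 they were Asb13 (0.84), Sms, Map3k2, B4galnt1 and Ttc27 (0.74), and for Cbfb Zdhhc20 (0.82), Vamp4, Fbxl6, Npm3 and Xrn2 (0.78). Among the members, Runx2 and Runx3 had r = 0.63, Runx1 and Runx3 0.44, and Runx1 and Runx2 -0.08. Cbfb had 0.37 with Runx3, 0.19 with Runx2 and -0.01 with Runx1.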

How the data were processed

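Cells were captured in droplets with barcoded 3′ tags, per the labels' protocols. The deposited matrix holds UMI counts per gene and barcode, unfiltered and not normalized, and the file header names software 3.0.2. Build mm10 and R 3.4.1 are given per the submitters' processing notes. Aligner, counter and gene models were not given in the sources used here. Of 31053 deposited identifiers, 30934 are in GENCODE M21. Lanes share 1 matrix with no map from barcode to title, so there is 1 sample and no p-value.

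Barcodes with at least 500 genes and at most 20% mitochondrial UMIs were kept. Scrublet's automatic threshold called 1 doublet, so a score above 0.15 was used (122 barcodes), and 118 barcodes with over 5% haemoglobin UMIs outside the erythroid cells were removed. Cells were clustered with scanpy 1.11.5 (2000 variable genes, 30 components, 15 neighbours, Leiden resolution 1.0, and 0.5 within the mesenchyme), leaving out the 4 genes, 98 listed genes and mitochondrial genes. Clusters were named from 26 marker lists. Counts were summed per group and given as CPM, with exact intervals (scipy 1.17.1) that cover counting error only. Co-detection used cells thinned to 2000 UMIs, repeated with another seed and at 1000 UMIs, and odds ratios were stratified over clusters by Mantel-Haenszel. The interval and ratio steps were tested on simulated data. No sample column was left unused.

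The genes, lists and comparisons were chosen with earlier results of these data known. Named listed genes are the 2 to 4 per list and comparison with the largest absolute log2 ratio, or fewer where fewer passed 2-fold. Co-detected genes are the 6 largest and 3 most negative differences, and similar genes the 5 highest correlations, of which 1 for Runx2 is not reported here. Values in the Krt17 and Cox6a2 cells by Runx2 UMIs, the finer clusters, and the listed genes co-detected with epithelial Runx1 were chosen after levels were seen. Alternatives changed the totals, weights, depth, cell filters and clustering.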

Additional observations from a re-analysis of the deposited data

How the results depend on the processing

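No paired analysis was possible because there was 1 sample. Of the log2 ratios of the 4 genes, 1 changed direction: Cbfb in ameloblast-like over other epithelial cells was -0.13 with cells thinned to 2000 UMIs. The cause of the changes below was not tested. Thinning also gave Runx2 -4.26, Runx3 -1.37 and Cbfb -1.07 for epithelium over mesenchyme, Runx3 0.95 for immune cells over mesenchyme, Runx2 -1.95 and Runx3 -2.31 for epithelium over immune cells, Runx3 -0.029 in the Ogn cluster, Runx2 -0.19 in ameloblast-like cells and Cbfb 1.46 in T or cytotoxic cells. With totals that leave out genes above 1% of UMIs, epithelium over mesenchyme gave Runx1 3.64, Runx2 -2.73, Runx3 -0.68 and Cbfb -0.56, epithelium over immune cells gave Runx1 -0.20, and ameloblast-like cells gave Runx1 -0.65, Runx2 -0.46, Runx3 -1.58 and Cbfb 0.98. With each cell weighted equally, Runx2 was -3.33 for epithelium over mesenchyme, and Runx1 -0.12 and Runx3 -1.83 for epithelium over immune cells. Runx1 for epithelium over immune cells was -0.21 with all barcodes of the rule and -0.51 with at least 1000 genes. Runx1 in ameloblast-like cells was -1.81 with at least 1000 genes, -1.73 with at most 10% mitochondrial UMIs and -1.79 with finer clustering, which also gave Runx2 -1.82 there and 2.45 in the Ogn cluster. Apart from values already given, the side of 2-fold changed for Runx3 in epithelium over mesenchyme (-1.14) and Runx1 in the Ogn cluster (-1.23) with equal weights, for Runx1 in the Ogn cluster (-1.29) with finer clustering, for Runx1 in T or cytotoxic cells (-1.26) with thinning, for Runx2 in T or cytotoxic cells with equal weights (0.83) and thinning (0.29), and for Cbfb there with equal weights (1.03). In the finer clustering the highest Runx1 level was in the Cxcl10 cluster (319 CPM), with an interval that overlapped the next. Of 9 co-detected genes a pair, 9 kept their sign over the thinnings for mesenchymal Runx2 and immune Runx1 and Runx3, 8 for epithelial Runx1 and immune Cbfb, 6 for mesenchymal Runx3 and 4 for Cbfb in epithelium and in mesenchyme. For pairs of members, 8 of 23 values under the other thinnings had the other sign. Thinning with another seed gave -0.57 points for Runx2 in epithelial cells with minus without Runx1. With the other seed Cbfb in mesenchymal cells with minus without Runx3 was -2.17 points, and at 1000 UMIs it was -0.042. At 1000 UMIs Runx2 and Runx3 in immune cells with minus without Runx1 were -0.33 and 0.63 points, and Runx2 in epithelial cells -0.14. Thinning to 1000 UMIs gave 2.88 points for Cbfb in immune cells with minus without Runx1, and -1.17 points for Runx3 in mesenchymal cells with minus without Runx2. By thinned share the clusters with the highest CPM of Runx3 and of Cbfb came in rank 2. No value could be had for ameloblast-like cells with all barcodes, nor for T or cytotoxic cells with at least 1000 genes or at most 10% mitochondrial UMIs, since no cluster took that name. Cell number limits the small clusters: Cox6a2 held 26 cells. Depth limits the thinned shares of shallow clusters: 25 of 126 Ms4a1 cells and 35 of 77 Gzma cells reached 2000 UMIs.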
